A study of Mus musculus with 6 samples.

Results

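The ERK feedback genes described here are 10 mouse genes, Spry1, Spry2, Spry4, Spred1, Spred2, Dusp4, Dusp5, Dusp6, Etv4 and Etv5. They were chosen by name from the 47360 gene symbols of the table, with earlier results of these data known. Shares of all genes beside counts of members are therefore a description and not a test. All 10 were listed with a value in each of the 4 libraries analysed. The libraries were made from dental epithelial organoids (DEOs), which were grown in Matrigel for 14 days from adult dental epithelial stem cells taken from the apical incisor buds of wild-type female C57BL/6J mice at 9 weeks of age. The medium called +N held 50% Wnt3a-conditioned medium, 5% R-spondin1-conditioned medium, EGF at 100 µg per ml, Noggin at 200 µg per ml, N-acetylcysteine at 1 mM and Y27632 at 10 µM, and the other media held all of these as well. The medium +NF had FGF10 (100 µg per ml) in addition, +ND had the Notch inhibitor DBZ (dibenzazepine, 10 µM by the labels), and +NFD had both. EGF, which also feeds into ERK, was therefore in every medium, and no library shows the members without it. The +NJ and +NFJ media were not analysed here.

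FGF10 is a growth factor made by the mesenchyme around the growing end of the mouse incisor, and it acts on receptor tyrosine kinases of the epithelium. Active receptors signal through the adaptors Frs2 and Grb2 and the exchange factor Sos to Ras, Raf, Mek and the kinase ERK. ERK signalling switches on a small set of genes, most of which act back on it. Sprouty and Spred proteins restrain the step from receptor to Ras and Raf, Dusp phosphatases remove the activating phosphates from ERK, and the Ets factors Etv4 and Etv5 carry the signal to target promoters. In the incisor, Sprouty genes are known to restrict where enamel-forming cells arise.

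Each medium had 1 library, so differences between media could not be set against a replicate spread and were not tested. Values are FPKM, which are fragment counts relative to the length of the transcript and the size of the library. A ratio between media is the log2 of the quotient after 1 was added to both FPKM values, and genes were kept where the larger of the pair reached 1. A gene was counted as higher or lower at 2-fold, a log2 ratio of 1 in size, and all 10 members passed the filter in all 5 comparisons. Relative depth, read from the steps between low values of 8367 genes, was 0.761 in +ND, 0.994 in +NF and 0.978 in +NFD, with +N as 1. All 7 epithelial markers (Krt5, Krt14, Krt15, Trp63, Cdh1, Epcam and Itgb4) reached an FPKM of 1 in every library, with sums from 11041 to 19811. The 10 fibroblast markers summed to 156 (+N), 138 (+ND), 98.1 (+NF) and 396 (+NFD), with Col1a1 the largest part (74.3, 54.5, 50.3 and 153). The 8 macrophage markers summed to 669, 552, 472 and 423 in that order, of which Lyz2 was 528, 408, 373 and 288. The falling macrophage sum was not shared by all its markers. Of those that passed, 3 of 8 had a ratio above 0 in +ND against +N, and 6 of 7 in +NFD against +NF. Sums over 5 endothelial markers (0.945 to 1.36) and 5 Schwann cell and melanocyte markers (0.481 to 1.66) were low, and Sox10 and Dct were at 0. In bulk samples, fewer cells of a type and less RNA per cell cannot be told apart.

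FGF10 was associated with higher levels of most ERK feedback genes without DBZ and of some of them with DBZ. In +NF against +N, 4 of 10 members were at least 2-fold higher, beside 2.76% of 13090 genes, and these were Spry1, Dusp6, Etv4 and Etv5. In +NFD against +ND, 2 of 10 members were at least 2-fold higher, beside 3.39% of 13293 genes, and these were Spry1 and Spry2. No member was 2-fold lower in either comparison, beside 2.44% and 3.11% of genes. The median ratio of the members was 0.96 in +NF against +N, where all genes had a median of 0.12, and 0.59 in +NFD against +ND, where all genes had a median of 0.094. At a 1.5-fold limit, 7 of 10 members were higher in +NF (9.97% of genes) and 0 were lower (5.67%), while in +NFD against +ND 5 of 10 were higher (11.8%) and 0 were lower (8.06%). These comparisons share no library, and 12635 genes passed the filter in both. Spry1 was at least 2-fold higher in both, beside 0.863% of these genes. At 1.5-fold, 5 members were higher in both, beside 3.1%, namely Spry1, Spry2, Spry4, Dusp6 and Etv5, and 8 members were above 0 in both, beside 40.5%. In +NF, 2 of the 9 fibroblast markers that passed were 2-fold lower than in +N and none was 2-fold higher, with a median of -0.39, whereas in +NFD 7 of 10 were 2-fold higher than in +ND, with a median of 1.20, and the part of these cells in the member ratios of +NFD was not tested. Of the epithelial markers, Itgb4 was at least 2-fold higher with FGF10 in both backgrounds (1.04 and 1.31), and Krt15 was lower in +NF (-1.50).

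**Figure D1:**
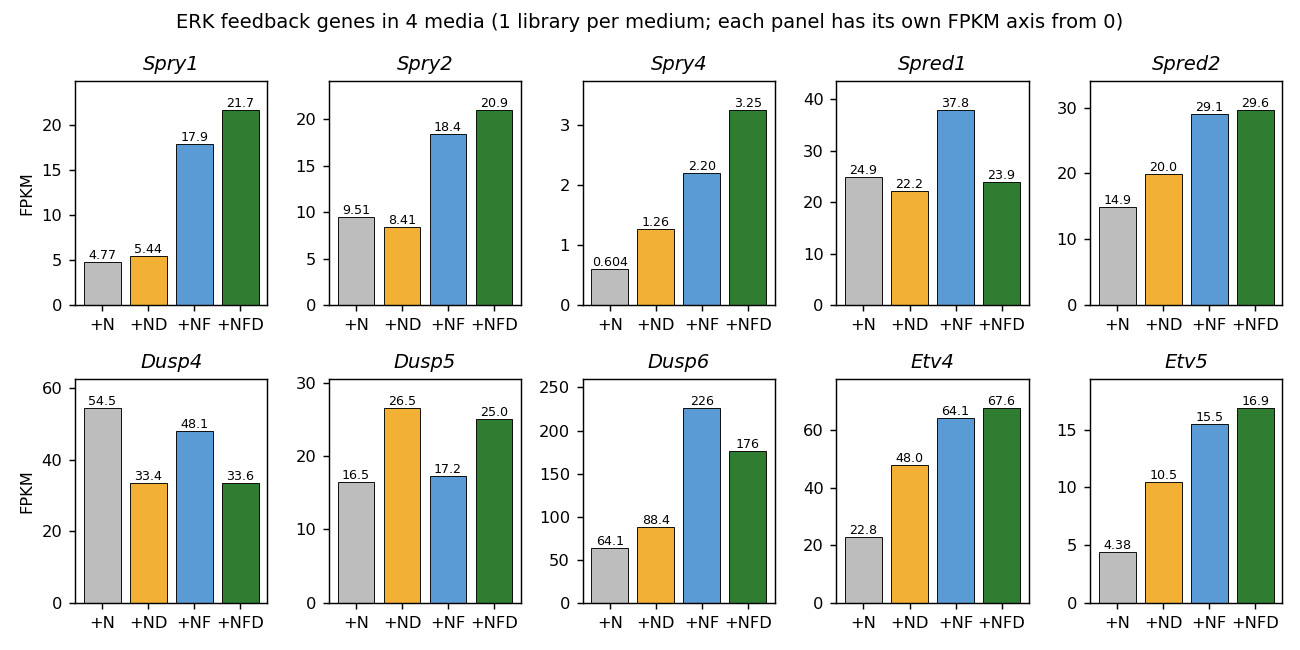
Level of each member (vertical axis, FPKM, linear and starting at 0) in the 4 media (horizontal axis), with 1 bar per library and no error bar because each medium had 1 library. Dusp6 reached 226 in +NF against 64.1 in +N, whereas Dusp4 was highest in +N at 54.5.

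All 3 Sprouty genes were higher with FGF10 in both backgrounds. Sprouty1 (Spry1, chromosome 3, 37639947 to 37644598 in GRCm38, plus strand), an inhibitor of receptor tyrosine kinase signalling, was at an FPKM of 4.77 and 5.44 without FGF10 (+N and +ND) and 17.9 and 21.7 with FGF10 (+NF and +NFD). The 2 libraries with FGF10 lay far above the 2 without it. The ratio for FGF10 was 1.72 without DBZ and 1.82 with DBZ, and Spry1 stood at rank 92 of 13090 genes and at rank 76 of 13293 from the highest ratio. The ratios for DBZ were 0.16 without FGF10 and 0.26 with it, and the first of these changed sign (-0.036) when libraries were scaled to housekeeping genes. Spry1 rested on at least about 286 fragments per library, and the counting error alone gave a 95% interval of 1.74 to 2.09 for the FGF10 ratio of 1.91 taken without a pseudocount. An overlapping entry on the opposite strand, Gm42922, was at most at 0.104 FPKM.

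Sprouty2 (Spry2, chromosome 14, 105891949 to 105896819, minus strand) is the relative most often studied in EGF and FGF signalling. Its FPKM was 9.51 in +N and 8.41 in +ND, and 18.4 in +NF and 20.9 in +NFD. Both FGF10 libraries were again above both others. Its FGF10 ratio was 0.89 without DBZ, short of 2-fold, and 1.22 with DBZ. Sprouty4 (Spry4) was the lowest member in all 4 libraries, at 0.604 (+N), 1.26 (+ND), 2.20 (+NF) and 3.25 (+NFD). Each added agent went with a higher value, and the library with both was highest. The FGF10 ratios of Spry4 were 1.00 without DBZ, just under the limit before rounding, and 0.91 with DBZ, and the added 1 pulls such low values together. Without a pseudocount they were 1.87 (95% counting interval 1.51 to 2.22) and 1.36 (1.08 to 1.65), from at least about 81.0 fragments in +N and 129 in +ND, the smaller count of each pair.

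Summed over the 3 Sprouty genes, the FPKM was 14.9 and 15.1 without FGF10 (+N and +ND) and 38.6 and 45.9 with FGF10 (+NF and +NFD). The sum was nearly level between the media without FGF10. The make-up of the sum differed too, with Spry1 at 32.0% in +N and 36.0% in +ND and at 46.5% in +NF and 47.3% in +NFD. Spry2 was the most abundant of the 3 in every library except +NFD, where Spry1 exceeded it by a factor of 1.04.

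Neither Spred gene was 2-fold different in any comparison. Spred1 (chromosome 2, 117121374 to 117182279, plus strand), which recruits the Ras inhibitor neurofibromin to the membrane, was at an FPKM of 24.9 in +N and 22.2 in +ND, and 37.8 in +NF and 23.9 in +NFD. Only +NF stood apart among the 4 libraries. The FGF10 ratio was 0.58 without DBZ and 0.10 with DBZ. Spred2 (chromosome 11, 19924375 to 20024026, plus strand), a close relative, was at 14.9 (+N), 20.0 (+ND), 29.1 (+NF) and 29.6 (+NFD). Both FGF10 libraries were the highest here, and they were close to each other. Its FGF10 ratios were 0.92 and 0.55. Spred1 was the more abundant of the pair in +N, by a factor of 1.67, and the less abundant in +NFD, by a factor of 0.808. Their sum was 39.8 and 42.1 without FGF10 (+N and +ND) and 66.9 and 53.5 with FGF10 (+NF and +NFD).

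The 3 phosphatases had 3 different patterns. Dusp6 (chromosome 10, 99263231 to 99267488, plus strand), the cytoplasmic phosphatase specific for ERK, was the most abundant member in every library, at 64.1 in +N and 88.4 in +ND, and 226 in +NF and 176 in +NFD. Both FGF10 libraries were above both others, and +NF was the highest. The FGF10 ratio was 1.80 without DBZ, rank 81 of 13090 genes, and 0.98 with DBZ, rank 469 of 13293. With housekeeping scaling the second value was 1.07, past 2-fold. The counting interval of the first ratio, taken without a pseudocount as 1.82, was 1.77 to 1.87, from at least about 4269 fragments in +N. Dusp5 (chromosome 19, 53529109 to 53542431, plus strand), the nuclear phosphatase specific for ERK, was at 16.5 (+N), 26.5 (+ND), 17.2 (+NF) and 25.0 (+NFD). Both libraries with DBZ were above both without it, and the FGF10 ratios were 0.059 and -0.082, with signs that changed under other scalings. An antisense gene overlaps Dusp5 in the annotation, and the strand setting of the counting was not given in the sources used here.

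Dusp4 (chromosome 8, 34807297 to 34819894, plus strand), a nuclear phosphatase that acts on ERK and on related kinases, was at 54.5 and 33.4 without FGF10 (+N and +ND) and 48.1 and 33.6 with FGF10 (+NF and +NFD). It was highest in +N and lower in both libraries with DBZ. Its FGF10 ratios were -0.18 without DBZ and 0.0093 with DBZ, the second with either sign depending on the scaling. The FPKM of Dusp6 exceeded that of Dusp4 by a factor of 1.18 in +N and 2.64 in +ND, and 4.70 in +NF and 5.23 in +NFD. Of the FPKM summed over the 3 phosphatases, 135 (+N), 148 (+ND), 291 (+NF) and 235 (+NFD), Dusp6 made up 47.5%, 59.6%, 77.6% and 74.99%.

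The Ets factors were higher in every library with an added agent than in +N. Etv4 (chromosome 11, 101769742 to 101785371, minus strand) was at 22.8 and 48.0 without FGF10 (+N and +ND) and 64.1 and 67.6 with FGF10 (+NF and +NFD). Its FGF10 ratio was 1.45 without DBZ and 0.49 with DBZ. Etv5 (chromosome 16, 22381309 to 22439719, minus strand), which acts beside Etv4 in FGF-responsive epithelia, was at 4.38 in +N and 10.5 in +ND, and 15.5 in +NF and 16.9 in +NFD. The order of the 4 libraries was the same as for Etv4. Its FGF10 ratio was 1.62 without DBZ and 0.64 with DBZ, and the first had a counting interval of 1.41 to 2.23 around 1.82 without a pseudocount. That interval rests on the shortest coding transcript of Etv5 (489 nt, the longest being 3975 nt) and would be narrower with a longer one. Etv4 was the more abundant throughout, by factors from 4.01 in +NFD to 5.20 in +N, and made up between 80.0% and 83.9% of the sum of the pair.

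DBZ in the absence of FGF10 went with higher levels of some members and lower levels of others. In +ND against +N, 2 of 10 members were at least 2-fold higher, beside 5.88% of 13173 genes, and none was 2-fold lower, beside 5.29%. The members were Etv4, with a ratio of 1.04, and Etv5, with 1.09, and both fell under 2-fold when libraries were scaled by their upper quartile (0.93 and 0.995), when ratios were centred on their median (0.94 and 0.99) and with housekeeping scaling (0.81 and 0.89). Dusp5 had a ratio of 0.65, Dusp6 of 0.46 and Spred2 of 0.40. The ratio of Spry4 was 0.50, and it was 0.95 with a pseudocount of 0.1 and 1.06, past 2-fold, with none. Spry2 and Spred1 both had a ratio of -0.16, and Dusp4 had the lowest, at -0.69. At a 1.5-fold limit, 3 members were higher (Dusp5, Etv4 and Etv5), beside 17.3% of genes, and 1 was lower (Dusp4), beside 11.6%. The median of the members was 0.43, with 0.10 over all genes. Epithelial markers also differed here, with 3 of 7 at least 2-fold lower in +ND (Krt14 at -1.19, Cdh1 at -1.25 and Epcam at -1.15), 0 of 7 at least 2-fold higher and a median of -0.81, and their sum was lowest in this library. Of the 9 fibroblast markers that passed, 1 was at least 2-fold higher in +ND than in +N (Prrx1 at 1.62) and 0 were 2-fold lower. Their median was 0.24, with 5 of the 9 above 0, although their sum was lower in +ND. +ND was the shallowest library as well. The part of the epithelial markers, the fibroblast markers and depth in the member ratios was not tested.

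In the presence of FGF10, DBZ went with small differences. In +NFD against +NF, 0 of 10 members were at least 2-fold higher, beside 3.72% of 13349 genes, and 0 were 2-fold lower, beside 2.69%. The member median was 0.095, with 0.048 over all genes, and it was -0.039 with housekeeping scaling. Dusp5 (0.51), Spry4 (0.41) and Spry1 (0.26) had the highest ratios. Spred1 (-0.64), Dusp4 (-0.50) and Dusp6 (-0.36) had the lowest. At a 1.5-fold limit, 0 members were higher, beside 7.57% of genes, and 1 was lower (Spred1), beside 6.17%. Etv4 and Etv5, the members with the highest ratios for DBZ alone, had ratios of 0.077 and 0.11 here, both below 0 with housekeeping scaling. Across the 2 comparisons of DBZ, which share no library, 0 members were at least 2-fold higher in both, beside 1.84% of 12774 genes, 0 were at least 1.5-fold higher in both, beside 3.94%, and 6 were above 0 in both, beside 38.3%. Dusp4 and Dusp5 kept ratios of at least 0.5 in size, Dusp4 below 0 and Dusp5 above it. Of the fibroblast markers, 7 of 10 were at least 2-fold higher in +NFD than in +NF, with a median of 1.96, and their part in the member ratios was not tested.

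**Figure D2:**
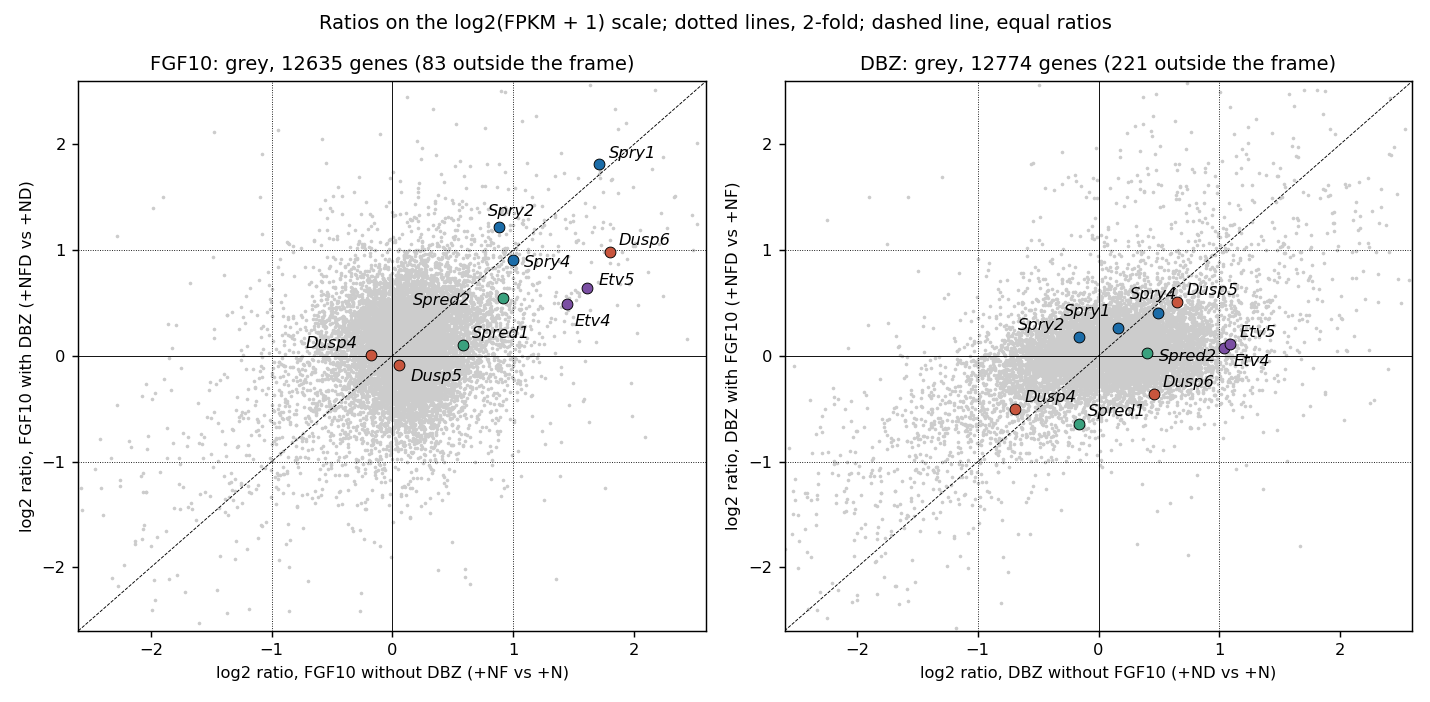
Each point is a gene, with members coloured by family and labelled and all other genes in grey. The left panel plots the FGF10 log2 ratio with DBZ (vertical) against that without DBZ (horizontal), and the right panel the DBZ log2 ratio with FGF10 (vertical) against that without FGF10 (horizontal). Points under the dashed line, such as Dusp6, Etv4 and Etv5, had a lower ratio in the presence of the other agent, while Spry1 and Spry2 lay above it.

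With both agents together, most members were higher than in +N. In +NFD against +N, 6 of 10 members were at least 2-fold higher, beside 5.85% of 13358 genes, and 0 were 2-fold lower, beside 4.03%. Spry1 had a ratio of 1.98, Etv5 of 1.73, Etv4 of 1.53, Dusp6 of 1.44, Spry4 of 1.40 and Spry2 of 1.06. Spry2 fell under 2-fold, to between 0.88 and 0.96, under the 3 other scalings. At a 1.5-fold limit, 7 members were higher, beside 16.1% of genes, and 1 was lower (Dusp4), beside 7.77%. Spred2 had a ratio of 0.94, Dusp5 of 0.57, Spred1 of -0.057 and Dusp4 of -0.68. Of the fibroblast markers, 9 of 10 were at least 2-fold higher in +NFD than in +N. Of the epithelial markers, 3 of 7 were at least 2-fold lower (Krt14 at -1.05, Krt15 at -1.40 and Cdh1 at -1.12) and 1 was higher (Itgb4 at 1.57), with a median of -0.31. The part of either list in these ratios was not tested. The member median was 1.23, and the median of all genes was 0.18. The +N library enters this comparison as well as both comparisons of a single agent above.

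The layout allows the value with both agents to be set beside the sum of the 2 single-agent ratios. For Etv5 the sum was 2.71 and the value with both was 1.73. For Etv4 they were 2.49 and 1.53, and for Dusp6 they were 2.26 and 1.44. These members were thus lower with both agents than the sum, and the gap was 0.98, 0.96 and 0.82. For Spry1 the sum was 1.87 and the value 1.98, for Spry4 they were 1.495 and 1.40, and for Spry2 they were 0.73 and 1.06. Spry1 lay close to the sum and Spry2 somewhat above it, while the place of Spry4 depended on the pseudocount. The gap is, with its sign turned, the difference between the FGF10 ratio with and without DBZ, which was -0.98 for Etv5, -0.96 for Etv4, -0.82 for Dusp6, 0.10 for Spry1 and 0.34 for Spry2. For Spry4, the lowest member, it was -0.091, but -0.42 with a pseudocount of 0.1 and -0.51 with none. At a 1.5-fold limit, 3 of 10 members had a lower FGF10 ratio with DBZ, beside 14.4% of 13748 genes, and 0 had a higher one, beside 11.6%. The members' median difference was -0.26, the median over all genes was -0.023, and the 5th percentile over all genes was -0.94. The members' median was -0.40 with a pseudocount of 0.1 and -0.45 with none. With 1 library per medium there is no spread to test such a difference against, and since +N stands in both single-agent ratios, a low value in that library alone would lower every difference.

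**Figure D3:**
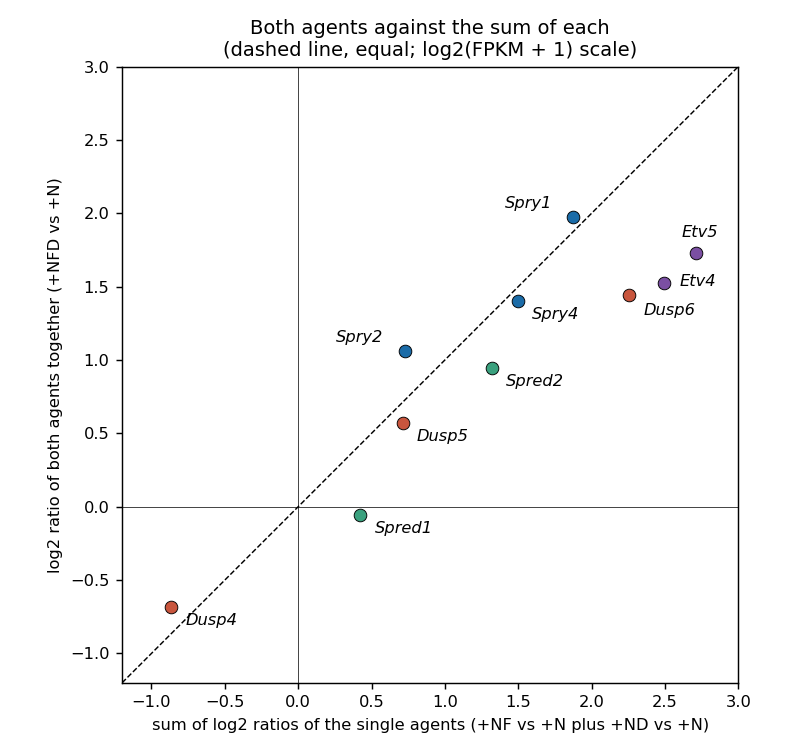
Log2 ratio of each member with both agents (vertical, +NFD against +N) against the sum of its log2 ratios with each agent alone (horizontal). The dashed line marks equal values, and Etv5 (sum 2.71, both 1.73), Etv4 and Dusp6 lie under it while Spry1 lies near it, as does Spry4 with the pseudocount of 1 used here (its difference was -0.51 with none).

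The DNA just upstream of the annotated start is shown for 3 members with unlike responses, Spry1 (FGF10 ratio similar with and without DBZ), Dusp6 (FGF10 ratio lower with DBZ) and Dusp5 (higher with DBZ but not with FGF10). The sequences are from RefSeq on GRCm38.p6, plus strand, 5′ to 3′, in lower case. Capitals mark the match to CGGAAG, which holds the GGAA core read by Ets factors, on either strand. The core GGAA outside CGGAAG occurs in all 3 sequences and was not marked.
Spry1, chr3:37639697-37639946: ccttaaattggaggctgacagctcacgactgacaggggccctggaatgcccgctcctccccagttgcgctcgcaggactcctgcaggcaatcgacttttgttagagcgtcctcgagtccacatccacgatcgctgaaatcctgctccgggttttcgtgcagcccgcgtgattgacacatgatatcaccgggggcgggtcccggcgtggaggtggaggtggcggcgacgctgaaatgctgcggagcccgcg
Dusp6, chr10:99262981-99263230: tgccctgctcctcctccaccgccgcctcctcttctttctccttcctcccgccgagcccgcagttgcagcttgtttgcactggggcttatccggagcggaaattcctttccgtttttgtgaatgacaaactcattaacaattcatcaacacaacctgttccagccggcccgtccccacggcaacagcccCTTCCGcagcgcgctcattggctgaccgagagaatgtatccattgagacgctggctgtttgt
Dusp5, chr19:53528895-53529108: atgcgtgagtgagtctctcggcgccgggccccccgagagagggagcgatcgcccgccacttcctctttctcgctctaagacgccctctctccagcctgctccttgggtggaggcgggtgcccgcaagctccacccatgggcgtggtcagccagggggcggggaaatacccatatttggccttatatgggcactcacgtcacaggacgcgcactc
The windows searched ran from 250 bases before the start to 50 bases after it, and 7 of 10 members had 8 such windows. The Ets motif CCGGAAG was in 0 of the 8 and in 8.86% of 32851 windows of all genes. The AP-1 motif TGAGTCA, read by Fos and Jun, was in 0 of the 8 and in 5.20% of all. The motif GTGGGAA of RBPJ, the DNA-binding partner of Notch, was in 0 of the 8 and in 6.38% of all. The shorter CGGAAG, which is contained in CCGGAAG and was added after the sequences were seen, was in 3 of the 8, those of Dusp6, Spred1 and Spred2, and in 16.9% of all. Both strands were searched. A match is a run of letters and not a binding site, and its absence speaks of these windows alone.

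Genes elsewhere in the pathway were described by lists. Over all genes, between 2.76% and 5.88% were at least 2-fold higher and between 2.44% and 5.29% were 2-fold lower in a comparison. A count of 0 in a short list, here and in the lists below, thus does not set that list apart from all genes. Of 13 genes for Ras, Raf, Mek, Erk and their partners, 0 were 2-fold different in any of the 5 comparisons, with FGF10 medians of -0.038 without DBZ and 0.0021 with DBZ. Of 11 adaptors and exchange factors, 0 were 2-fold different in any comparison either, with medians of 0.096 and 0.076. None of the 14 genes listed as other inhibitors or modulators of the pathway was 2-fold different in a comparison of FGF10, with medians of 0.32 and 0.016. In +ND against +N, 1 of the 13 that passed was higher. That was Flrt3, a membrane protein that interacts with FGF receptors and is not taken here as an inhibitor. It was at 13.8 (+N), 30.4 (+ND), 19.5 (+NF) and 17.3 (+NFD).

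The relatives of the members were counted in the same way. Of 7 other MAP kinase phosphatases, 6 passed in +NF against +N and 7 in +NFD against +ND. With FGF10, 0 of these were 2-fold different, and the medians were -0.17 and -0.11. In each of +ND against +N, +NFD against +NF and +NFD against +N, 1 of 7 was 2-fold higher and 0 were lower. It was Dusp2, named after its values were seen, at an FPKM of at most 2.61. The 9 other Ets factors had 0 past 2-fold with FGF10 and medians of 0.24 and 0.25. Among these, Etv1, the third gene of the Etv4 and Etv5 subfamily, was at 7.94 and 2.43 without FGF10 (+N and +ND) and 10.4 and 5.68 with FGF10 (+NF and +NFD). Its ratio in +ND against +N was -1.38, whereas Etv4 and Etv5 had 1.04 and 1.09. Spred3 was at 2.48 in +N and 5.62 in +ND, and 6.50 in +NF and 6.23 in +NFD. It was lowest in +N, with an FGF10 ratio of 1.11 without DBZ and 0.13 with DBZ. Spry3, the other gene of that list, did not pass the filter.

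Among 9 receptors, 1 was 2-fold higher with FGF10 in each background, and it was Fgfr1. Fgfr1 was at 16.5 (+N), 35.6 (+ND), 69.3 (+NF) and 75.6 (+NFD), so the order of the libraries was that of Etv4 and Etv5. Its FGF10 ratio was 2.01 without DBZ and 1.07 with DBZ. Fgfr2, whose epithelial form is the main receptor of FGF10, was at 28.2 and 82.8 without FGF10 (+N and +ND) and 24.2 and 50.8 with FGF10 (+NF and +NFD). It was highest in the 2 libraries with DBZ, with ratios of 1.52 and 1.04 for DBZ and -0.21 and -0.69 for FGF10. Fgfr3 was at 12.9 in +N and 27.4 in +ND, and 9.77 in +NF and 15.0 in +NFD.

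Of 20 other ERK target genes, 0 of the 17 that passed were 2-fold different in +NF against +N, with a median of -0.14. In +NFD against +ND 1 of 18 was lower and 0 were higher, with a median of 0.022. The gene was Kctd12, named after its value was seen, at 2.56 in +ND and 0.300 in +NFD. The members and this list thus had medians of opposite sign in +NF against +N. With DBZ alone, Fosl1, an AP-1 subunit (ratio 1.21), and Ier3, an immediate early gene (1.13), were at least 2-fold higher, and Plaur, the urokinase receptor, was lower (-1.02). Hbegf, a ligand of the EGF receptor, was at 47.6 in +N and 19.2 in +NFD, with a ratio of -1.27.

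**Figure D4:**
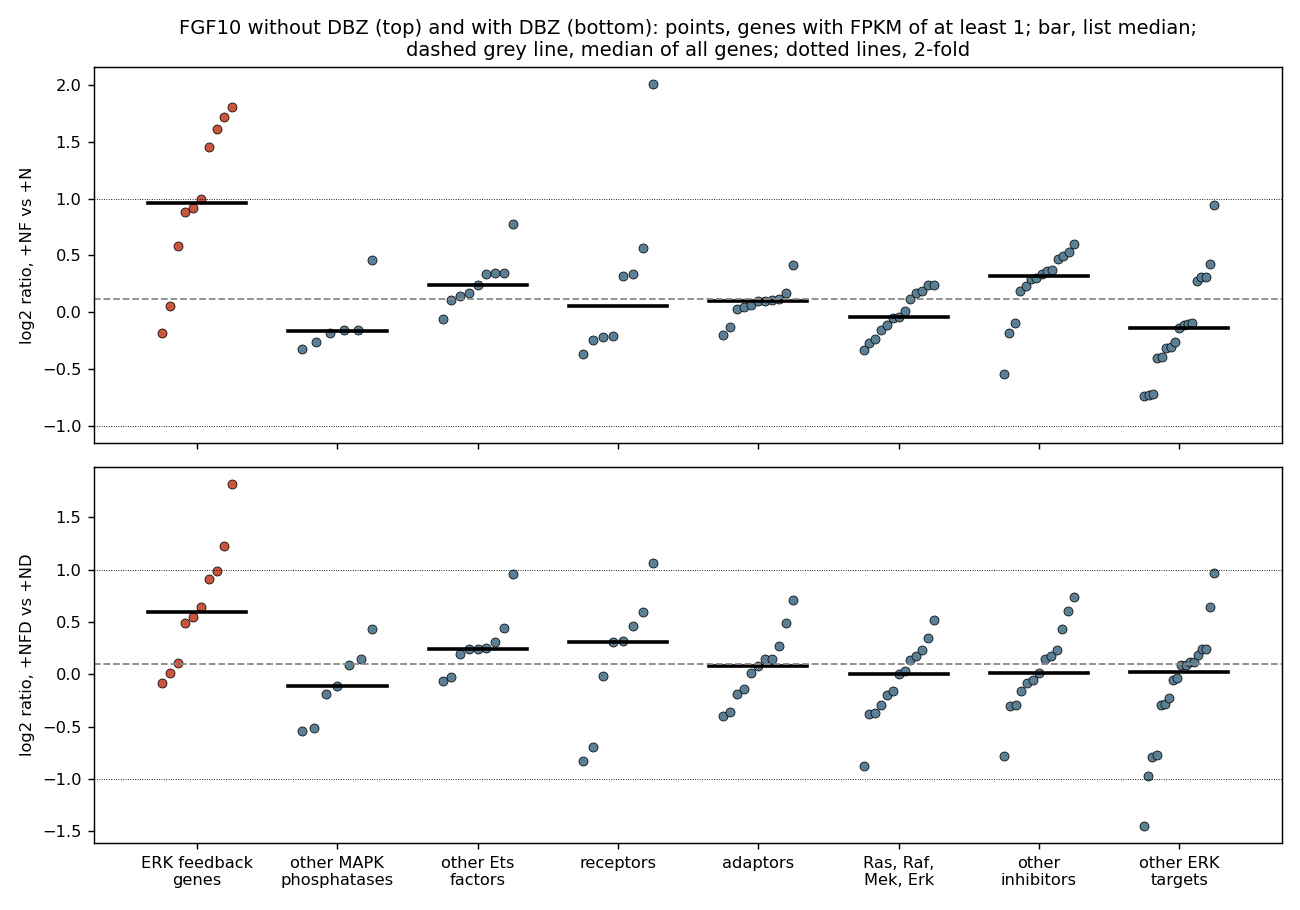
Log2 ratio for FGF10 (vertical axis) without DBZ in the upper panel and with DBZ in the lower panel, with 1 point per gene that passed the filter, grouped by list (horizontal axis). Black bars are list medians, the dashed line is the median of all genes and dotted lines mark 2-fold. The members have medians of 0.96 and 0.59, and the receptor past 2-fold in both panels is Fgfr1.

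The pattern of Spry1, the member with the widest range on the log2(FPKM + 1) scale (1.98), was compared with those of 10458 other genes. As a plain quotient of FPKM, the highest library over the lowest, Spry4 had the wider range, at 5.38 against 4.55 for Spry1. Likeness was the Euclidean distance between log2(FPKM + 1) values centred over the 4 libraries. The nearest genes were Plagl1, an imprinted zinc finger factor (0.16), Cpq, a carboxypeptidase (0.27), Vcan, the matrix proteoglycan versican (0.36), Rian, an imprinted non-coding RNA (0.38), and Pam, a peptide-amidating enzyme (0.43). Plagl1 was at 0.682 (+N), 1.14 (+ND), 4.51 (+NF) and 6.07 (+NFD). Cpq was at 5.31, 5.84, 20.1 and 19.0 in the same order. Distances over 4 libraries rest on few points, and low values such as those of Plagl1 are drawn together by the pseudocount.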

How the data were processed

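Per the labels' processing notes, the authors checked reads with FastQC 0.11.9, trimmed them with Trim Galore 0.6.5 and aligned them to GRCm38 with TopHat 2.1.1. By their methods, Cufflinks then gave the deposited FPKM values, which are divided by transcript length and library size. A few abundant transcripts therefore lower all other values of a library. The annotation release and strand setting are not given in the sources used here. Of the 6 samples in the labels, 2 were not analysed here. Entries of the same symbol were summed (123 symbols), and ratios used a pseudocount of 1 and a filter at an FPKM of 1. The table gives no read totals. Fragments were estimated from the steps of 1 fragment in FPKM times length and the shortest coding transcript in GENCODE M21, and intervals cover counting error only. The members and lists were chosen with earlier results of these data known. All members were named. Of the other lists, genes past 2-fold with an FPKM of at least 5 were named, at most 4 per list, and Fgfr1, Fgfr2 and Fgfr3 always. For likeness, the 5 nearest genes were named. Alternatives were a pseudocount of 0.1 or none, no filter or a filter at 5, 3 other scalings, the highest entry per symbol and a 1.5-fold limit. The computations were tested on simulated data and run in Python 3.11.15 with numpy 2.4.6, pandas 2.3.3 and matplotlib 3.10.9.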

Additional observations from a re-analysis of the deposited data

Results flagged for a closer look

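In 4 cases the ratio for an agent had opposite signs with and without the other agent. The share of all genes with opposite signs was not counted, so these cases do not set the members apart from other genes. Ratios above 0 in both backgrounds were found for 8 members with FGF10, beside 40.5% of 12635 genes, and for 6 with DBZ, beside 38.3% of 12774. Each medium had 1 library, and the differences were not tested. Dusp6 had the largest of them: its DBZ ratio was 0.46 without FGF10 and -0.36 with it, a difference of -0.82. Spry2 went the other way for DBZ, from -0.16 without FGF10 to 0.18 with it, a difference of 0.34. For FGF10, Dusp4 had a ratio of -0.18 without DBZ and 0.0093 with it, a difference of 0.19. Dusp5 had 0.059 and -0.082, a difference of -0.14. The signs of the FGF10 ratio with DBZ of Dusp4, and of both FGF10 ratios of Dusp5, depended on the scaling.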

How the results depend on the processing

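Of 50 ratios of single members, 43 kept their sign and 43 kept their side of 2-fold under all alternatives checked for them. These were 8, or 7 for Spry4, which the filter at 5 leaves out, and the 1.5-fold limit was not among them. The member median in +NF against +N was 1.22 with a pseudocount of 0.1 and 1.23 with none. In +NFD against +N it was 1.06 with a filter at an FPKM of 5, which leaves out Spry4, and 1.06 (1.055) with ratios centred on their median. In +ND against +N, 0 members were 2-fold higher under upper-quartile scaling (641 of 13187 genes), centring (615 of 13173) or housekeeping scaling (514 of 13141). With no pseudocount 3 were (Spry4, Etv4 and Etv5), beside 1222 of 13081 genes. The count over all genes thus moved the same way from the 774 of 13173 of the main setting. With housekeeping scaling the member median was 0.20 in +ND against +N and -0.039 in +NFD against +NF. At 1.5-fold, 7 members were higher in +NF against +N (9.97% of genes) and 5 in +NFD against +ND (11.8%). There was 1 lower in each of +ND against +N (Dusp4, 11.6% of genes), +NFD against +NF (Spred1, 6.17%) and +NFD against +N (Dusp4, 7.77%). Spry4 passed 2-fold in +NF against +N with a pseudocount of 0.1 (1.71) and with housekeeping scaling (1.02).

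Over all genes, the count at least 2-fold higher in +NF against +N was 361, and it was 712 with a pseudocount of 0.1, 720 with none and 1305 at 1.5-fold. Centring turned the balance of higher and lower genes to 248 and 412 in +NF against +N, 345 and 506 in +NFD against +ND, 615 and 842 in +ND against +N, and 540 and 714 in +NFD against +N. No paired analysis was possible because each medium had 1 library and no result came from a test. The planned comparison of +NFJ with +NJ was not run, and the search of protein sequences was not run. With 1 library per medium, variation between cultures is unknown, and it cannot be told apart from the effect of a medium. As estimated from the shortest coding transcripts, counting error was largest for Spry4 and Etv5, with about 81.0 and 60.5 fragments in +N. The coding transcripts of Etv5 run from 489 to 3975 nt, so its fragments may be more and its error smaller than given.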

Other observations

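Some ERK target genes outside the members, chosen here after their values were seen, differed with FGF10 in opposite directions, and none reached 2-fold after 1 was added to the FPKM. Egr1, an immediate early zinc finger factor, was at an FPKM of 39.0 and 42.5 without FGF10 (+N and +ND) and 22.9 and 24.4 with FGF10 (+NF and +NFD), so both libraries with FGF10 were lower than both without it. Its FGF10 ratio was -0.74 without DBZ and -0.78 with DBZ. Lif, a cytokine, was at 4.30 in +N and 3.92 in +ND, and 9.22 in +NF and 6.65 in +NFD, with ratios of 0.95 and 0.64. Its plain FPKM in +NF was more than 2-fold that in +N.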
